A study of Mus musculus with 79 samples.

Results

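Parvalbumin (PV) and somatostatin (SST) neurons of the medial prefrontal cortex were compared gene by gene in unstressed control mice. The members were set by their labels: 10 PV libraries and 10 SST libraries, 1 of each type from each of 10 control mice, so 20 of the 79 libraries in the series. All mice were male C57Bl/6J animals whose age is not given in the sources used here, and the controls lived in groups with littermates. A second set of 9 mice with both libraries had been exposed to unpredictable chronic mild stress (UCMS) for 5 weeks and lived singly; it was used to see whether a difference between the types recurred in animals that the control comparison did not use. Pyramidal (PYR) and VIP libraries of the same mice served to place the levels. Each library pooled 130 cells, which had been found in 12 µm frozen sections with RNA probes and cut out by laser, so it holds the probed cell bodies together with the tissue that surrounds them in the section, and in such bulk samples fewer cells of a type and less RNA per cell cannot be told apart. Gene coordinates are those of GENCODE M21 on GRCm38. Values are normalized counts, reads on a gene divided by a size factor for the library.

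PV and SST neurons are the main classes of cortical inhibitory neuron that arise in the medial ganglionic eminence, and both release GABA. PV cells are mostly fast-spiking basket and chandelier cells: they contact the soma or the start of the axon of pyramidal neurons and fire at high rates, which needs potassium channels that close fast, quick vesicle release and much ATP. SST cells are mostly Martinotti cells and their relatives: they contact distal dendrites, receive excitatory inputs that strengthen during a train, and also release peptides. Perineuronal nets, coats of aggrecan-type proteoglycans, enclose chiefly the PV cells.

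The probed genes checked the labels and are no finding. Pvalb ranged from 265 to 1696 normalized counts in PV libraries (median 743) and from 0 to 279 in SST libraries (median 12.9). Sst ranged from 13.2 to 518 in PV libraries (median 194) and from 7131 to 20779 in SST libraries (median 12726). Neither gene's groups reached the other group's median, though Pvalb in the highest SST library was above the lowest PV library. Reads on genes ran from 5241174 to 11815938 in PV libraries and from 7817407 to 13053871 in SST libraries, while 9033 to 18408 genes were detected in PV and 10126 to 19519 in SST libraries. PV library U3 had the fewest reads and the fewest genes of the 20. Markers of pyramidal cells and glia were present in both types. The pyramidal markers summed to 9626 to 16666 normalized counts in PV libraries and 10825 to 21761 in SST libraries, against a mean of 34524 in control PYR libraries, and Slc17a7, the vesicular glutamate transporter of excitatory cells, averaged 2819 ± 743 in PV and 3262 ± 990 in SST libraries (SD, n = 10 each; exact paired sign-flip test, two-sided, adjusted p = 0.418 over 14 library measures). Markers of astrocytes summed to 6651 to 11468 in PV and 6211 to 10699 in SST libraries, those of oligodendrocytes and their precursors to 784 to 3563 and 1334 to 4563, those of microglia to 76.8 to 668 and 38.6 to 1446, and those of endothelial and mural cells to 0 to 626 and 135 to 787. Of the tested members, 8 of 12 astrocyte markers had a positive difference, against 4 of 14 pyramidal, 0 of 12 oligodendrocyte, 1 of 9 microglial and 3 of 8 endothelial and mural markers. Kcnj8 was at 0 in all PV libraries and Ly6c1 at 0 in all SST libraries, both of the endothelial and mural list. None of these sums differed at an adjusted p of 0.05 and no member of these lists was called in the comparison of the types; their part in the results below was not tested.

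Across all 17273 genes with a mean of at least 10 normalized counts, 624 differed between the types at a Benjamini-Hochberg adjusted p under 0.05 by limma with the mouse as a block (3.61% of the genes tested). Of these, 349 were higher in PV neurons (2.02%) and 275 were higher in SST neurons (1.59%), and these counts include Pvalb and Sst. At least 2-fold apart were 469 (2.72%), 250 higher in PV (1.45%) and 219 higher in SST neurons (1.27%). The 10 PV libraries did not overlap the 10 SST libraries in 114 genes (0.66%), 59 higher in PV and 55 higher in SST, and 112 of these were called. Counts of list members called or not overlapping below are to be read against these shares over all genes. The test called 4.46% of the 13614 protein-coding genes, and 17 genes of other types, 0.465% of theirs. Differences are given as PV minus SST on the log2(normalized count + 4) scale, where 1 is 2-fold; the added 4 understates the difference of genes that are nearly absent in a type. Overlaps of exons were looked up for 103 of the called genes given with values below, without the probed ones and without Kcnf1, Kcng4 and Scn9a. Exons of 18 of the 103 overlap those of another measured gene, 15 of them on the opposite strand only. Whether reads were counted by strand is not given in the sources used here. The most abundant of these partners were Ppip5k1 for Map1a and Eef1b2 for Ndufs1 on the opposite strand, and mt-Atp6 for mt-Co3 and mt-Nd4l for mt-Nd4 on the same strand.

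**Figure D1:**
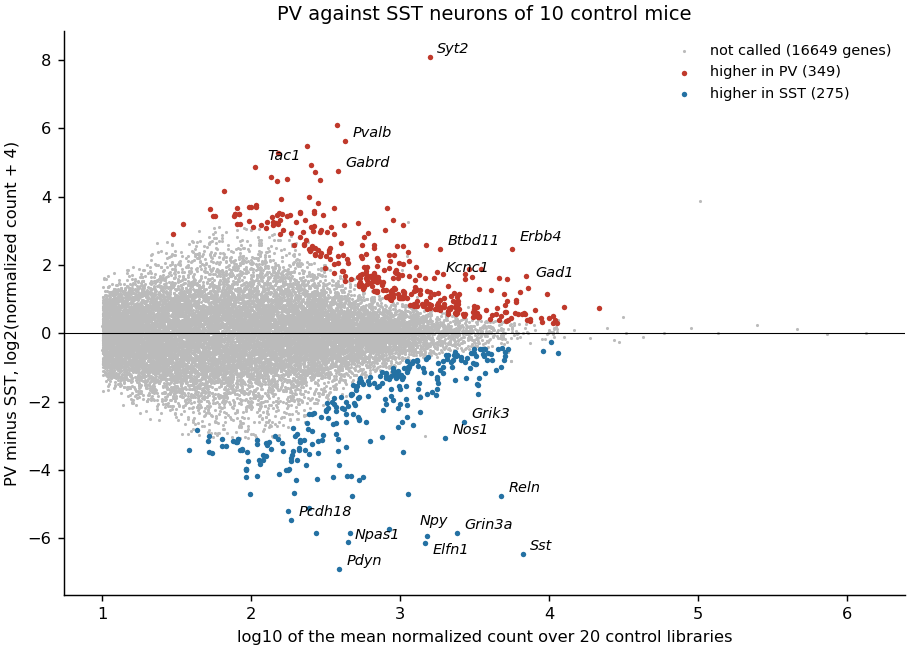
Each point is a gene; the horizontal axis is the log10 of its mean normalized count over the 20 control libraries and the vertical axis its PV minus SST difference on the log2 scale. The 349 genes higher in PV are red, the 275 higher in SST are blue and the rest are grey; Syt2 stands at 8.09 at the top and Pdyn at -6.90 near the bottom, while abundant genes such as Gad1 are called at smaller differences.

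The promoters of 4 genes that stood far apart between the types are shown first: Syt2 and Cplx1, which were higher in PV neurons, and Elfn1 and Npy, which were higher in SST neurons. Each runs from 250 bases before to 50 after a transcription start of RefSeq, on GRCm38.p6, 5′ to 3′ on the gene's own strand. They lie at chr1:134646362-134646661 on the plus strand (Syt2), chr5:108549978-108550277 on the minus strand (Cplx1), chr5:139907616-139907915 on the plus strand (Elfn1) and chr6:49822460-49822759 on the plus strand (Npy). The RefSeq start used lies 65 bases from the GENCODE start of the gene for Syt2, 3 for Cplx1, 77 for Elfn1 and 0 for Npy. The windows of Syt2 and Elfn1 end before that GENCODE start. Capitals mark matches, on either strand, to any of 4 short motifs: the TATA box TATAAA, the GC box GGGCGG, the core of the cAMP response element TGACGT and the nuclear receptor half-site AAGGTCA, which is bound by the estrogen-related receptors.
Syt2: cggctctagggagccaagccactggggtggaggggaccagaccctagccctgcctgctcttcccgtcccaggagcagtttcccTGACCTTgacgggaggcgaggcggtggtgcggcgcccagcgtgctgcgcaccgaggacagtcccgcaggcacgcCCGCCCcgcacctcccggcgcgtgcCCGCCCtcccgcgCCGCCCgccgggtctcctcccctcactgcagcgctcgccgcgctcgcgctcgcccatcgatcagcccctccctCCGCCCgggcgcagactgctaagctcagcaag
Cplx1: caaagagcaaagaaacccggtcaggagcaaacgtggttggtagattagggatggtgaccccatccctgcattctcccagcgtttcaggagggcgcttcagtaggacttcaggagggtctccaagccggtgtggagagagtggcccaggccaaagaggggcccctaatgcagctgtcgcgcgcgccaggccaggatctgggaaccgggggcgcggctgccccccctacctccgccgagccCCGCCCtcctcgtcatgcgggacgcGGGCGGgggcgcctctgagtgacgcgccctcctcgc
Elfn1: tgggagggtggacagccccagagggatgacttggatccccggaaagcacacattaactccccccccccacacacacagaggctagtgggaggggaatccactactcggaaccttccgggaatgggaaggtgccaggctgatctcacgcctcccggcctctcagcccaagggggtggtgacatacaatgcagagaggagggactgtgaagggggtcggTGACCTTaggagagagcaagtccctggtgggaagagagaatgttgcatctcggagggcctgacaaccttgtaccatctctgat
Npy: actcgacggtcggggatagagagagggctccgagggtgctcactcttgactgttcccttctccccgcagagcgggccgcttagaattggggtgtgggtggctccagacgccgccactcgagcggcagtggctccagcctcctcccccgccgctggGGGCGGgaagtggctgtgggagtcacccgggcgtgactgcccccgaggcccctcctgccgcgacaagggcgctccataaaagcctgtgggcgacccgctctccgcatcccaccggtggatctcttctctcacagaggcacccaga
The Syt2 window held 4 GC boxes and 1 half-site, that of Cplx1 2 GC boxes, that of Elfn1 1 half-site and that of Npy 1 GC box. A window was at hand for 182 of the 250 genes higher in PV by 2-fold, for 173 of the 219 higher in SST, and for 11196 of 17254 gene symbols tested. The half-site was found in 6.59% of the windows of genes higher in PV (12 windows), in 2.31% of those of genes higher in SST (4 windows) and in 3.13% of all windows. The GC box was found in 61%, 57.2% and 61.4% of the windows in the same order, the TATA box in 6.04%, 5.2% and 7.3%, and the cAMP element core in 9.34%, 5.2% and 11.5%. No motif contains another, and these are matches of letters in a short window that were not tested.

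Genes for fast transmitter release were among those furthest apart, higher in PV neurons. Syt2, the calcium sensor of fast vesicle fusion (ENSMUSG00000026452, GRCm38 chr1:134646677-134762593), ranged from 978 to 5348 normalized counts in PV libraries (median 2510) and from 0 to 48.1 in SST libraries (median 2.34). Every PV library stood above every SST library, and the mean difference was 8.09 on the log2 scale (SE 0.697, adjusted p = 4.70e-28). Cplx1, a complexin that clamps and triggers vesicle fusion, ranged from 7469 to 15523 in PV and from 1603 to 4113 in SST libraries (medians 9607 and 3464), a difference of 1.67 (SE 0.106, adjusted p = 7.76e-52), also with no overlap. Vamp1, the vesicle SNARE of fast synapses, had medians of 1412 in PV and 335 in SST libraries (2.30, SE 0.349, adjusted p = 1.00e-08), and Sncb, beta-synuclein, medians of 3796 and 2373 (0.80, SE 0.150, adjusted p = 1.34e-05).

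Some other release genes were lower in PV neurons. Cplx2, the complexin paralog, ranged from 717 to 2701 in PV and from 1786 to 4852 in SST libraries (medians 1168 and 3296; -1.38, SE 0.186, adjusted p = 4.37e-11), lower in PV in 9 of 10 mice. Unc13c, a Munc13 priming factor, had medians of 69.0 in PV and 851 in SST libraries (-4.28, SE 0.645, adjusted p = 6.73e-09), but edgeR on the recovered reads did not call it (adjusted p = 0.293). Pclo, the active zone scaffold piccolo, differed by only -0.58 but without overlap, at 7271 to 11505 in PV and 12088 to 14861 in SST libraries (adjusted p = 1.05e-11). Of 32 active zone and vesicle release genes tested, 6 were higher in PV, 5 were lower and 21 did not pass, with a median difference of -0.06 against -0.02 over all genes. Bsn, the scaffold bassoon, had medians of 10491 and 10139 (0.05, adjusted p = 0.858), and Snap25, a SNARE of the plasma membrane, 7246 and 6381 (0.26, adjusted p = 0.133).

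GABA metabolism was split between its enzymes. Gad1, which makes most of the GABA of the cell body, ranged from 7683 to 13854 in PV and from 2913 to 6237 in SST libraries (medians 9827 and 4192), higher in PV by 1.33 (SE 0.101, adjusted p = 6.74e-36) with no overlap. Its paralog Gad2, the enzyme attached to vesicles, was lower in PV in 10 of 10 mice, at medians of 2879 in PV and 4289 in SST libraries (-0.67, SE 0.139, adjusted p = 0.000146). Of 10 genes for GABA synthesis, loading and uptake, 5 were higher in PV, Gad2 alone was lower and 4 did not pass. Among those that did not pass was Slc32a1, which loads GABA into vesicles, with medians of 1303 and 1051 (0.28, 95% interval -0.20 to 0.76, adjusted p = 0.719).

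Receptors for GABA were called on both sides. Gabrb2, a beta subunit of the GABA-A receptor, was higher by 1.21 (SE 0.223, adjusted p = 7.14e-06). Gabrd, the delta subunit of receptors outside the synapse, had medians of 616 in PV and 16.7 in SST libraries with no overlap, a difference of 4.76 that limma called (adjusted p = 8.19e-07) and edgeR did not (adjusted p = 0.0995). Over 14 GABA-A receptor genes, 4 were higher in PV, 2 were lower and 8 did not pass, and their median difference was -0.07. In edgeR 2 were called, both higher in PV. Gabbr2, a subunit of the GABA-B receptor, differed by 0.51 (medians 5344 and 4053; SE 0.120, adjusted p = 0.00138) and was higher in PV in 10 of 10 mice.

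Most of the potassium channel genes that were called were higher in PV neurons. Kcnc1, the Kv3.1 channel that lets cells fire fast, ranged from 5965 to 11148 in PV and from 1888 to 3872 in SST libraries (medians 7351 and 2394), a difference of 1.59 (SE 0.123, adjusted p = 4.64e-35). Its relative Kcnc2 (medians 6060 and 2566; 1.27, adjusted p = 9.81e-18) did not overlap between the types either. Kcna2, an axonal Kv1 channel, was higher by 0.84 in 9 of 10 mice (SE 0.118, adjusted p = 2.49e-10). Of 12 Kv3 and Kv1 channel genes and their beta subunits, 7 were higher in PV, 1 was lower and 4 did not pass, with a median difference of 0.91. Kcna1 was among the 7 at 2.56 (adjusted p = 3.92e-06), but its call was lost in 12 of 22 alternatives, without mouse 2, 3, 4, 7, 9 or 10 among them, and its adjusted p was 0.442 by edgeR.

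Among 38 other potassium channel genes, 11 were higher in PV, 1 was lower and 26 did not pass, and the edgeR counts were 6 and 1. Kcnip2, an auxiliary subunit of Kv4 channels, had medians of 1642 in PV and 384 in SST libraries (2.37, SE 0.320, adjusted p = 4.06e-11), and Kcnj3, a subunit of G protein-gated GIRK channels, 892 and 173 (2.22, SE 0.445, adjusted p = 5.59e-05). The single gene of that list on the other side was Kcnd3, the Kv4.3 pore subunit of the A-type current, which ranged from 3.99 to 696 in PV and from 1038 to 2199 in SST libraries (medians 307 and 1555). It was lower in PV with a difference of -2.74 (SE 0.352, adjusted p = 2.62e-12). Kcnip2 and Kcnd3, an auxiliary and a pore subunit of Kv4 channels, thus lay on opposite sides. The list does not hold every potassium channel gene. Outside it, for example, Kcnf1 was called lower in PV (-1.63, adjusted p = 5.53e-05) and Kcng4 higher (5.27, adjusted p = 1.64e-05). Of 5 genes for HCN pacemaker channels, 2 were called, both higher in PV, although the median of the 5 was -0.60.

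Sodium channel subunits divided by paralog. Scn1a, the Nav1.1 channel of inhibitory neurons, ranged from 4781 to 7834 in PV and from 2247 to 4963 in SST libraries (medians 7032 and 2982), higher by 1.15 (SE 0.121, adjusted p = 1.48e-18). Scn8a, the Nav1.6 channel of the axon start, was higher by 0.90 (medians 7575 and 4267; adjusted p = 2.69e-14), and Scn4b, the beta subunit tied to resurgent current, by 3.51 (300 and 44.4; adjusted p = 0.00205). Scn2a, the Nav1.2 channel, was instead at 1035 to 3372 in PV and 3862 to 5872 in SST libraries (medians 2484 and 5013), lower with no overlap, a difference of -1.16 (SE 0.142, adjusted p = 9.67e-14). Scn3b, another beta subunit, was lower in 9 of 10 mice (299 and 822; -2.09, SE 0.485, adjusted p = 0.00116). Of 13 sodium channel genes, 4 were higher in PV, 2 were lower and 7 did not pass, and edgeR called the same numbers in each direction. Scn9a, a sodium channel gene outside these 13, was also called higher in PV (2.98, adjusted p = 0.00241).

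More of the called calcium channel genes were lower than higher in PV neurons. Cacna2d3, an alpha2delta subunit that brings channels to the membrane, ranged from 35.6 to 414 in PV and from 1017 to 2825 in SST libraries (medians 160 and 1864; -3.47, SE 0.369, adjusted p = 4.22e-18). Cacna1b, the N-type channel, was lower in PV in 10 of 10 mice (1572 and 3079; -0.97, SE 0.184, adjusted p = 1.44e-05). Of 20 calcium channel genes 2 were higher in PV, 5 were lower and 13 did not pass, with a median of -0.65. Calcium stores and pumps were split again. Atp2a2, the SERCA2 pump of the endoplasmic reticulum, was higher by 0.76 (SE 0.127, adjusted p = 3.92e-07) and Atp2b2, a plasma membrane calcium pump, by 0.57 (SE 0.0999, adjusted p = 1.80e-06). Its paralog Atp2b4 differed by -1.61 (medians 655 and 1990; adjusted p = 9.49e-08) and Ryr2, a ryanodine receptor of calcium stores, by -0.77 (3532 and 6548; adjusted p = 2.14e-08), each lower in PV in 10 of 10 mice. Calb2, the calcium buffer calretinin, was at 0 to 43.2 in PV and 58.0 to 1300 in SST libraries (-5.84, SE 0.968, adjusted p = 2.91e-07). Slc24a2, a potassium-dependent sodium/calcium exchanger outside that list, ranged from 8619 to 18608 in PV and from 2617 to 8007 in SST libraries (medians 13121 and 6376; 1.15, SE 0.10, adjusted p = 6.36e-17).

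**Figure D2:**
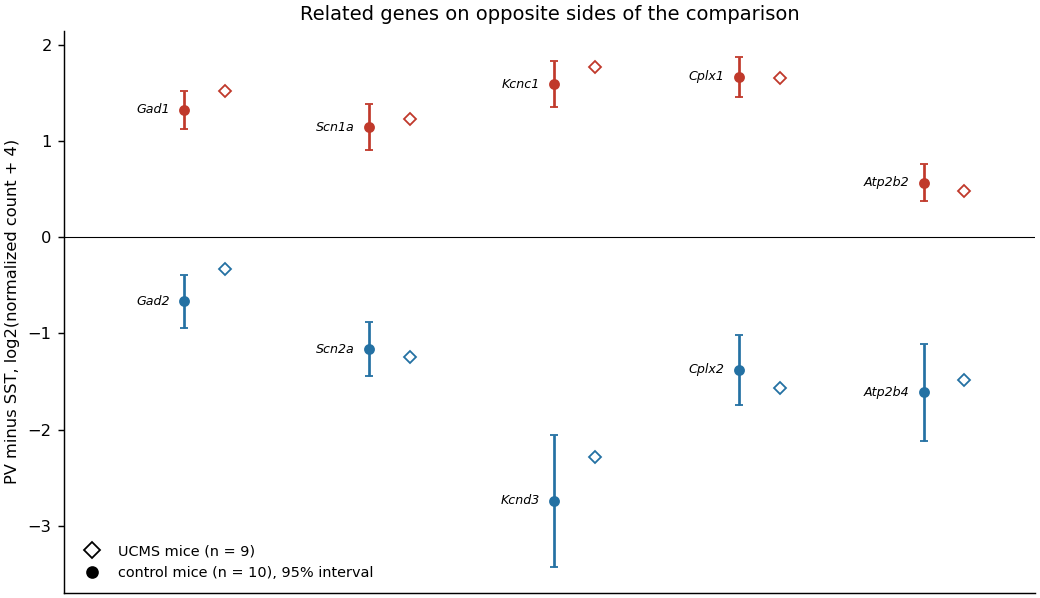
For 5 pairs of related genes, chosen after their values were seen, filled circles give the PV minus SST difference on the log2 scale in 10 control mice. Bars give its 95% interval from the SE of the fit. Open diamonds give the same difference in 9 UCMS mice. In each pair the red gene was higher in PV and the blue gene was higher in SST, from 1.33 for Gad1 and -0.67 for Gad2 at the left to 0.57 for Atp2b2 and -1.61 for Atp2b4 at the right.

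The sodium-potassium pump, which restores the gradients that spikes run down, was also called on both sides. Atp1b1, a beta subunit, was higher by 0.51 (11885 and 8926; adjusted p = 1.83e-08). Fxyd6, a small regulator of the pump, had medians of 24.8 and 762 (-4.75, SE 0.715, adjusted p = 6.72e-09). Of 10 such genes, 2 were higher in PV, 3 were lower and 5 did not pass, against 3.61% called over all genes. The types did not overlap in 5 of the 10, against 0.66% of all genes.

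Transcripts of the NR3A subunit and of some kainate receptor genes were lower in PV neurons. Grin3a, the NMDA receptor subunit NR3A (ENSMUSG00000039579, chr4:49661611-49845744), ranged from 0 to 515 in PV and from 2890 to 6394 in SST libraries (medians 78.9 and 4513), lower in PV with a difference of -5.84 (SE 0.357, adjusted p = 8.43e-48). It was the single called gene of 6 NMDA receptor subunits, against 3.61% called over all genes. Grin2b, an NMDA subunit of both types, had a difference of -0.12 (95% interval -0.27 to 0.03, adjusted p = 0.580). Grik3, a kainate receptor subunit, ranged from 152 to 1364 in PV and from 2852 to 8478 in SST libraries (medians 836 and 4334; -2.58, SE 0.196, adjusted p = 4.17e-36). Grik1, another kainate subunit, was at -1.17 (1117 and 2299; SE 0.209, adjusted p = 2.82e-06) and Neto1, an auxiliary subunit of these receptors, at -1.71 (890 and 2392; SE 0.231, adjusted p = 4.39e-11). All 7 kainate receptor and Neto genes tested had a negative difference; these 3 were called and the other 4 did not pass.

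Metabotropic and AMPA receptors gave a mixed picture. Grm7, a presynaptic metabotropic receptor, had medians of 146 in PV and 858 in SST libraries (-2.37, SE 0.524, adjusted p = 0.000459). Of 9 genes for metabotropic receptors, none was higher in PV, 2 were lower and 7 did not pass. Gria4, the AMPA receptor subunit GluA4 of fast interneurons, was higher in PV by 0.79 (2837 and 1617; SE 0.177, adjusted p = 0.000519), though in 8 of 10 mice and with overlap. Cacng2, the AMPA receptor partner stargazin, was higher by 1.28 (1206 and 569; SE 0.311, adjusted p = 0.00213). Of 14 AMPA receptor genes, 2 were higher in PV, 3 were lower and 9 did not pass. Gria1, the GluA1 subunit, lay at 0.01 (95% interval -0.15 to 0.17, adjusted p = 0.978).

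Synaptic organizers separated the types further. Elfn1, a transmembrane protein that draws presynaptic metabotropic receptors to the inputs of SST cells (ENSMUSG00000048988, chr5:139907943-139974722), ranged from 0 to 267 in PV and from 1673 to 4137 in SST libraries (medians 59.4 and 2896), lower in PV with a difference of -6.15 (SE 0.490, adjusted p = 1.05e-32). The presynaptic neurexin Nrxn3 (2588 and 5887; -1.07, adjusted p = 2.79e-14) was lower in PV in 10 of 10 mice. Lgi2, a secreted leucine-rich protein, was higher by 1.78 (2692 and 708; adjusted p = 1.67e-13) and Cntnap4, a neurexin relative, by 1.69 (SE 0.282; adjusted p = 3.90e-07). Of 33 synaptic adhesion genes, 4 were higher in PV, 6 were lower and 23 did not pass, against 2.02% higher and 1.59% lower over all genes.

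Cadherins, which join cells of like kind, and guidance receptors followed their own sides. Pcdh18, a protocadherin, was at 0 to 48.9 in PV and 60.1 to 558 in SST libraries (-5.46, SE 0.973, adjusted p = 2.69e-06). Cdh4 was lower in PV with a difference of -3.10 (114 and 610; adjusted p = 4.30e-05) and so was Cdh13, at -1.62 (508 and 1422; adjusted p = 7.90e-06), while Cdh18 was higher by 3.67 (SE 0.708; adjusted p = 2.23e-05). The count over 22 cadherin genes was 1 higher in PV, 4 lower and 17 that did not pass, against 2.02% higher and 1.59% lower over all genes. Plxna4, a receptor for semaphorins, ranged from 3089 to 6168 in PV and from 628 to 2210 in SST libraries (1.74, SE 0.174, adjusted p = 1.36e-20), and Sema7a, a membrane-bound semaphorin, had medians of 521 and 200 (2.26, SE 0.563, adjusted p = 0.00316). Over 27 semaphorin, plexin and neuropilin genes, 2 were higher in PV, 3 were lower and 22 did not pass, against 3.61% called over all genes. Without mice 3 and 10 the counts were 2 and 0.

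Matrix genes of the perineuronal net, where they differed, were higher in PV neurons, and reelin was lower in PV neurons. Hapln4, a link protein that ties hyaluronan to proteoglycans, ranged from 672 to 1993 in PV and from 0 to 677 in SST libraries (medians 1363 and 241; 3.68, SE 0.462, adjusted p = 8.03e-13); the call was lost without mouse 3 and by edgeR (adjusted p = 0.330). Bcan, the proteoglycan brevican, was higher by 1.76 (1281 and 452; adjusted p = 2.59e-06), Adamts15, a protease that cuts such proteoglycans, by 4.72 (440 and 6.29; adjusted p = 6.85e-06) and Acan, aggrecan, by 4.57 (169 and 0; adjusted p = 0.000348). Of 17 net genes tested 6 were higher in PV, none was lower and 11 did not pass, and edgeR called 5. Ncan, the proteoglycan neurocan, was at -0.40 (SE 0.304, adjusted p = 0.654). Reln, the secreted glycoprotein reelin, ranged from 12.2 to 1127 in PV and from 6562 to 11200 in SST libraries (medians 468 and 9251; -4.75, SE 0.572, adjusted p = 0.00114). It was the 1 called gene of 8 in its pathway, against 3.61% called over all genes.

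Most of the peptide genes that were called were lower in PV neurons. Npy, neuropeptide Y, ranged from 0 to 355 in PV and from 778 to 4445 in SST libraries (medians 40.7 and 3083; -5.92, SE 0.486, adjusted p = 1.15e-30), and Nos1, which makes nitric oxide and marks long-range SST cells, from 122 to 762 and from 1321 to 9988 (medians 410 and 2818; -3.06, SE 0.259, adjusted p = 6.36e-29). Pdyn, the dynorphin precursor, was at 0 to 70.2 in PV, with 0 as its median, and at 293 to 1879 in SST libraries (-6.90, SE 0.938, adjusted p = 6.16e-11). Penk, the enkephalin precursor, had medians of 0.395 and 405 (-5.19, SE 0.969, adjusted p = 9.76e-06) and Crh, corticotropin-releasing hormone, of 0 and 147 (-4.70, SE 0.999, adjusted p = 0.000208). The exception was Tac1, the precursor of substance P, which ranged from 0 to 776 in PV libraries, where 1 library was at 0, and from 0 to 82.2 in SST libraries (medians 463 and 0; 4.93, SE 0.953, adjusted p = 2.26e-05). Of 21 peptide genes, beside the probed ones, 1 was higher in PV, 7 were lower and 13 did not pass, with a median of -1.24. Chgb, the granule protein chromogranin B, lay at 0.11 (95% interval -0.28 to 0.50, adjusted p = 0.889).

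**Figure D3:**
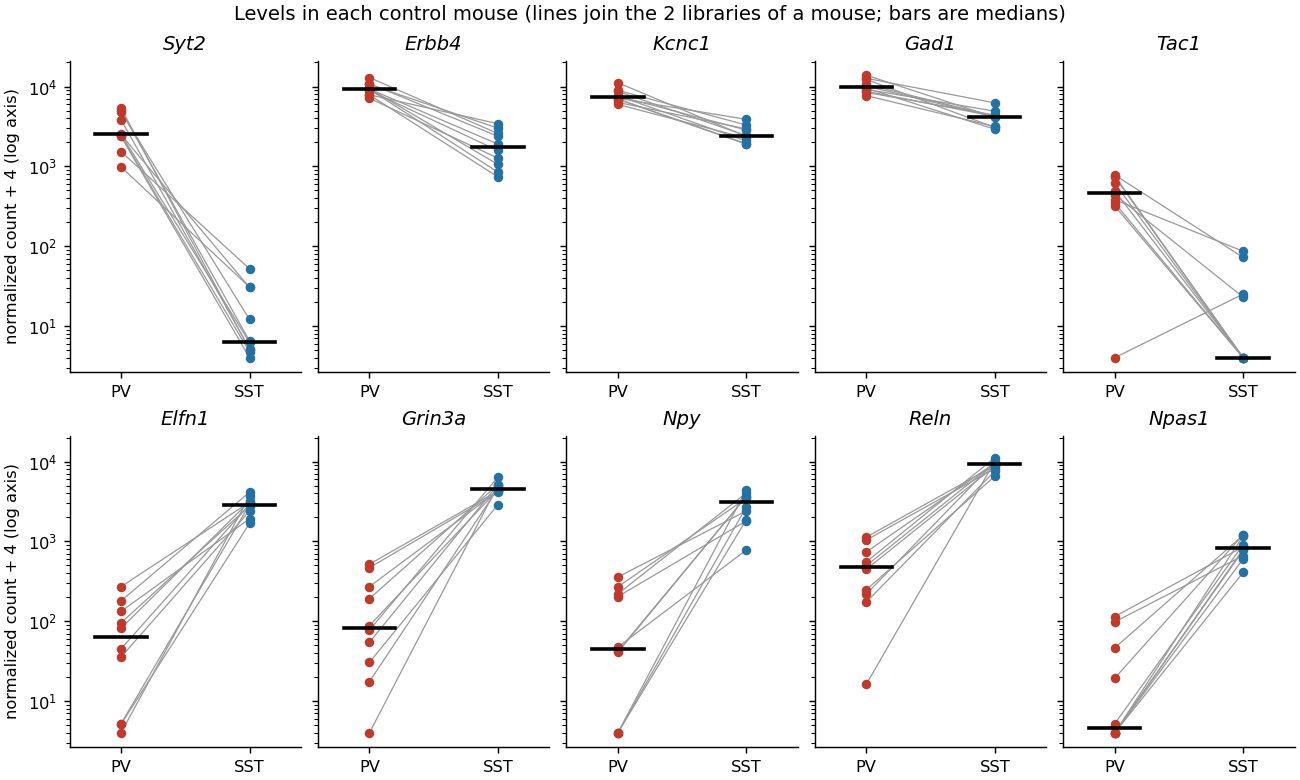
Normalized counts plus 4 on a log axis for 10 genes, with PV libraries at the left and SST libraries at the right of each panel; grey lines join the libraries of a mouse and black bars are medians. In the upper row every mouse falls toward SST except 1 in Tac1, and in the lower row every mouse is lower in PV.

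Receptors for modulators, where they differed, were lower in PV neurons. Cnr1, the cannabinoid receptor, had medians of 588 in PV and 1635 in SST libraries (-2.11, SE 0.304, adjusted p = 1.21e-09), and Oxtr, the oxytocin receptor, 32.0 and 432 (-4.25, SE 0.839, adjusted p = 3.80e-05), each lower in 10 of 10 mice. Sstr1, a somatostatin receptor, was at -4.66 (0.511 and 262; adjusted p = 7.36e-05) and Chrm3, a muscarinic acetylcholine receptor, at -2.35 (112 and 641; adjusted p = 0.000690), each lower in 9 of 10. Of 44 receptors, none was higher in PV, 7 were lower and 37 did not pass; without mice 3 and 10 there were 4. Fos, the immediate early gene of neuronal activity, was the 1 called gene of 17 of its kind (medians 0 and 119; -3.98, SE 1.00, adjusted p = 0.00381), and it was not called without mice 3 and 10 (adjusted p = 0.0578). A count of 1 in 17 is near the 3.61% called over all genes.

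Among the genes furthest apart were also receptors and signalling genes. Erbb4, the neuregulin receptor of interneurons (ENSMUSG00000062209, chr1:68032186-69108059), ranged from 7119 to 12938 in PV and from 734 to 3416 in SST libraries (medians 9261 and 1736; 2.48, SE 0.130, adjusted p = 3.14e-76), the smallest adjusted p of all. Ntrk3, the neurotrophin-3 receptor, ranged from 5039 to 7637 and from 1636 to 3602 (6947 and 2330; 1.62, SE 0.131, adjusted p = 7.26e-32). Dock4, an activator of Rac-type GTPases, was higher by 1.88 (4187 and 1348; adjusted p = 1.15e-24) and Btbd11, a BTB-domain protein, by 2.48 (2920 and 583; adjusted p = 7.98e-23). On the other side stood Trhde, a peptidase that degrades thyrotropin-releasing hormone (109 and 2124; -4.71, adjusted p = 3.63e-23), Ptprt, a receptor tyrosine phosphatase (1911 and 4462; -1.50, adjusted p = 2.15e-19), and Chl1, a cell adhesion molecule of the L1 family (1560 and 4786; -1.47, adjusted p = 9.38e-19). So did Adcy2, an adenylyl cyclase (440 and 2074; -2.68, adjusted p = 6.63e-16), Gpm6a, a membrane glycoprotein of growth cones (2276 and 4427; -1.30, adjusted p = 4.91e-15), and Synpr, the vesicle protein synaptoporin (34.3 and 1505; -5.72, adjusted p = 1.29e-17; by edgeR adjusted p = 0.0522). None of these overlapped between the types.

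Genes of the axon skeleton, where they differed, were higher in PV neurons. Map1a, a microtubule-associated protein, ranged from 12025 to 18747 in PV and from 7265 to 12264 in SST libraries (medians 15485 and 9070; 0.78, SE 0.0735, adjusted p = 3.84e-23). Ank1, an ankyrin that anchors membrane proteins, was higher by 1.59 with no overlap (3280 and 1242; adjusted p = 2.45e-17), and Nefh, the heavy neurofilament, by 3.04 in 9 of 10 mice (1262 and 220; adjusted p = 2.99e-10; by edgeR adjusted p = 0.163). Of 19 neurofilament, ankyrin, spectrin and related genes, 7 were higher in PV, none was lower and 12 did not pass, and edgeR called 4. Map1b, an abundant relative of Map1a, lay at 0.15 (adjusted p = 0.0953).

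Transcription factors of the interneuron lineage were called in equal numbers on each side, 4 and 4 of 33. Ppargc1a, the coactivator PGC-1alpha that drives mitochondrial genes, ranged from 1455 to 3574 in PV and from 451 to 1185 in SST libraries (medians 2249 and 685; 1.62, SE 0.239, adjusted p = 3.43e-09). Its partner Esrrg, an estrogen-related receptor, ranged from 663 to 1069 and from 21.5 to 382 (923 and 70.6; 3.24, SE 0.525, adjusted p = 1.23e-07). Mef2c, an activity-dependent factor, was higher by 0.72 (3753 and 2509; adjusted p = 0.000139). Npas1, a repressor of the bHLH-PAS family, was at 0 to 111 in PV and 406 to 1212 in SST libraries (0.594 and 824; -6.12, SE 0.849, adjusted p = 1.69e-10). Bcl11a, a zinc finger factor, was lower in PV in 10 of 10 mice (444 and 1006; -1.34, adjusted p = 0.00174) and Nr2f2, the nuclear receptor COUP-TFII, in 8 of 10 (0 and 284; -4.13, adjusted p = 0.00214).

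Energy metabolism was on the PV side as far as its genes were called. Of 13 protein-coding genes of the mitochondrial genome, 7 had transcripts higher in PV and none was lower. All 13 differences were positive, with a median of 0.39. The leading genes were mt-Nd1, a subunit of complex I, at 7714 to 11783 in PV and 4958 to 8179 in SST libraries (medians 10382 and 5721; 0.67, SE 0.0918, adjusted p = 7.98e-11), mt-Nd4, also of complex I (0.60, adjusted p = 4.86e-07), and mt-Co3, of cytochrome oxidase (0.58, adjusted p = 2.45e-06). As a share of all reads these transcripts took 1.22% ± 0.179 in PV and 0.940% ± 0.170 in SST libraries (SD, n = 10 each), higher in PV in 10 of 10 mice (exact paired sign-flip test, two-sided, p = 0.00195, the smallest it can give, adjusted p = 0.0137 over 14 measures). Mitochondrial ribosomal RNA took 7.92% ± 1.11 and 7.30% ± 1.17 (exact paired sign-flip test, adjusted p = 0.292).

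Of 78 respiratory chain and ATP synthase genes, 8 were higher in PV, against 2.02% of all genes. None of the 78 was lower and 70 did not pass, with a median of 0.55 and 60 positive differences. Atp5b, the beta subunit of the ATP synthase, ranged from 3044 to 5074 in PV and from 1362 to 2914 in SST libraries (3950 and 2496; 0.77, SE 0.147, adjusted p = 1.97e-05), and Atp5a1, the alpha subunit, was higher by 0.68 (4603 and 2723; adjusted p = 5.14e-05). Ndufs1, a complex I subunit, was higher by 1.54 (999 and 338; adjusted p = 0.00162). Cox6a2, an isoform of cytochrome oxidase known from muscle and PV cells, ranged from 0 to 359 in PV libraries (median 74.3) and had 0 reads in all 10 SST libraries, so no fold is given (adjusted p = 0.00622). Of 37 genes for glycolysis, creatine and pyruvate entry, 10 were higher in PV and none was lower. They included Ldhb, a lactate dehydrogenase (3043 and 1331; 1.18, adjusted p = 1.63e-08), Got1, of the malate-aspartate shuttle (2271 and 1017; 1.17, adjusted p = 2.01e-06), Ckb, the brain creatine kinase (2860 and 1830; 0.78, adjusted p = 0.000670), and Pgam1, a phosphoglycerate mutase (2734 and 1665; 0.77, adjusted p = 0.00154). The glycolytic enzyme Aldoa lay at 0.00 (95% interval -0.28 to 0.27, adjusted p = 0.995).

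**Figure D4:**
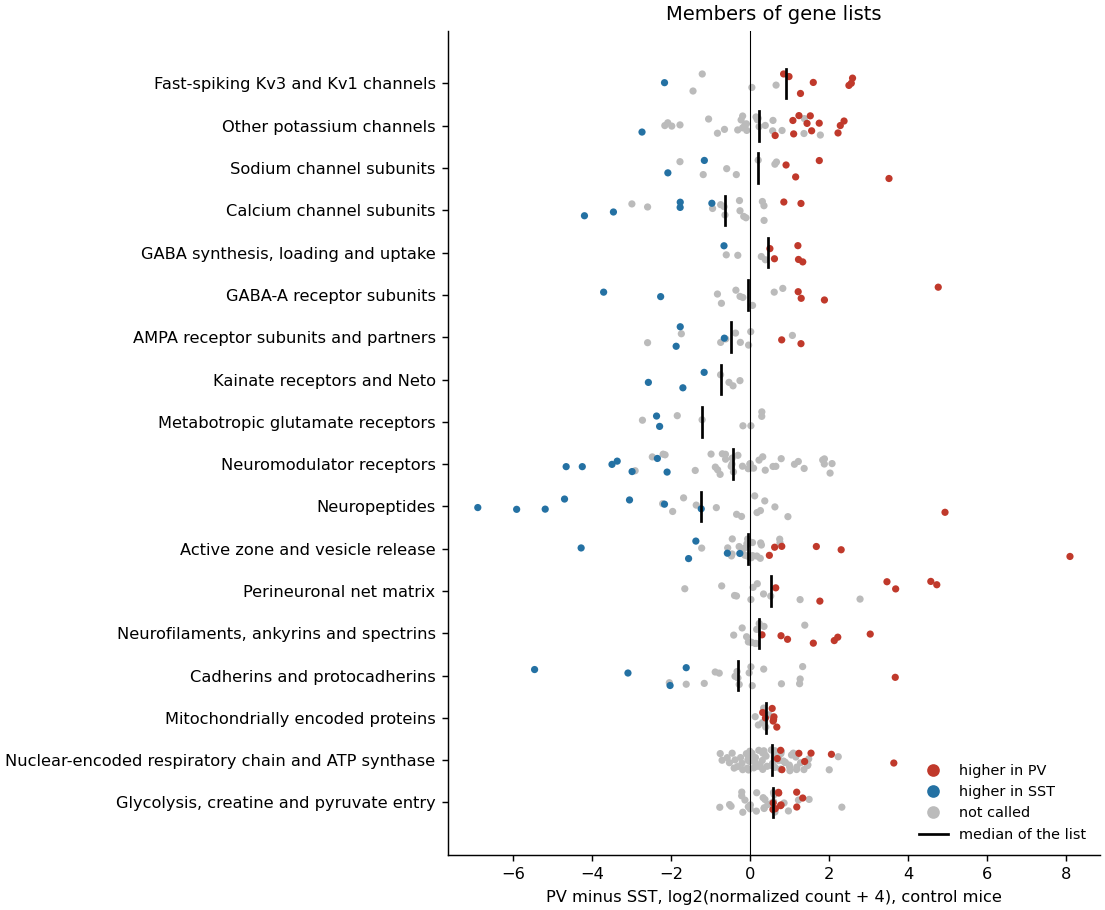
Each point is 1 tested member of a gene list; the horizontal axis is its PV minus SST difference on the log2 scale in control mice, red and blue points were called higher in PV or higher in SST, grey points were not called and black bars are list medians. Kv3 and Kv1 channels have a median of 0.91 and neuropeptides, without the probed genes, a median of -1.24.

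Marker lists drawn from what is known of the types were counted without the probed genes. They were chosen with earlier results of these data known, so their counts are no independent check of the labels. Of 18 PV markers other than Pvalb, 14 were higher in PV and none was lower. They included Me3, a mitochondrial malic enzyme (1.65, adjusted p = 0.000436), Osbpl3, a lipid-binding protein (1.3, adjusted p = 0.00163), and Gpr176, an orphan receptor (2.04, adjusted p = 0.0127, not called without mouse 5). The 4 that did not pass were Hapln1 (2.78, adjusted p = 0.109), Il1rapl2 (2.60, adjusted p = 0.0798), Lpl (1.09, adjusted p = 0.729) and Rbp4 (-1.16, adjusted p = 0.183), and Pthlh was below the filter. Of 23 SST markers other than Sst, 13 were lower in PV, none was higher and 10 did not pass, and edgeR called 9. Crhbp, a binding protein for corticotropin-releasing hormone (-2.17, adjusted p = 0.00781), Satb1, a chromatin organizer (-0.47, adjusted p = 0.0278), and Chrna2, a nicotinic receptor subunit (-2.99, adjusted p = 0.0493), were called but lost their call in 8, 9 and 16 of 22 alternatives. For Crhbp these included leaving out mouse 2 or 3, for Satb1 mouse 3, 5, 7, 8 or 10 and for Chrna2 mouse 1, 3, 5, 6, 7, 8 or 10.

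Not every textbook marker was called between the types in control mice. Cort, the peptide cortistatin, had medians of 21.9 in PV and 120 in SST libraries, and 0 as the lowest value of each type (-1.97, adjusted p = 0.360). Calb1, the calcium buffer calbindin, was lower in PV in 10 of 10 mice, at 0 to 1675 in PV and 1368 to 2550 in SST libraries, but did not pass in control mice (-1.82, adjusted p = 0.379). Etv1, a transcription factor, was at 0.28 (adjusted p = 0.912) and Tacr1, the substance P receptor, at -2.21 (adjusted p = 0.289).

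The summed level of VIP neuron markers was also lower in PV libraries. Their sum was 48 to 1278 normalized counts in PV and 2159 to 3947 in SST libraries (means 791 ± 371 and 3001 ± 533, SD, n = 10 each; lower in PV in 10 of 10 mice; exact paired sign-flip test, two-sided, adjusted p = 0.0137), and it averaged 20786 ± 3579 in control VIP libraries. The 4 called of 8 tested were Npas1, Calb2, Crh and Igfbp5. The defining gene Vip averaged 11.4 ± 16.5 in PV and 35.7 ± 94.8 in SST libraries against 5104 ± 1333 in VIP libraries, and Adarb2, the other strong VIP marker, 76.6 ± 159 and 60.1 ± 132 against 6266 in VIP libraries (n = 10 each). Chat and Sncg were at 0 in all PV libraries, and no marker was at 0 in all SST libraries.

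The same contrast in UCMS mice used other animals. Of 17273 genes, 761 were called there (4.41%), 378 higher in PV (2.19%) and 383 higher in SST (2.22%). Of the 624 called in control mice, 615 had the same sign in UCMS mice (98.6%, against 60.5% of all genes tested) and 413 were also called, which is 66.2% of the control calls and 54.3% of the UCMS calls. The other 9 had the opposite sign, and none of these was called in UCMS mice. Syt2 differed by 8.76 in UCMS and 8.09 in control mice, Erbb4 by 2.33 and 2.48, Grin3a by -4.72 and -5.84, and Elfn1 by -4.47 and -6.15. Calb1, which did not pass in control mice, was called in UCMS mice (-1.22, adjusted p = 0.000144), and Gad2 and Gabbr2, which passed in control mice, did not pass in UCMS mice (-0.33, adjusted p = 0.242, and 0.23, adjusted p = 0.195).

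The difference between the arms was tested directly. With type, arm and their interaction in 1 fit over 19 mice, limma called 0 of 17273 genes (0%; smallest adjusted p = 0.991) and 760 were at an unadjusted p under 0.05 (4.40%); edgeR called 7. Single housing went with UCMS in every mouse, so stress and housing cannot be told apart in that test.

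**Figure D5:**
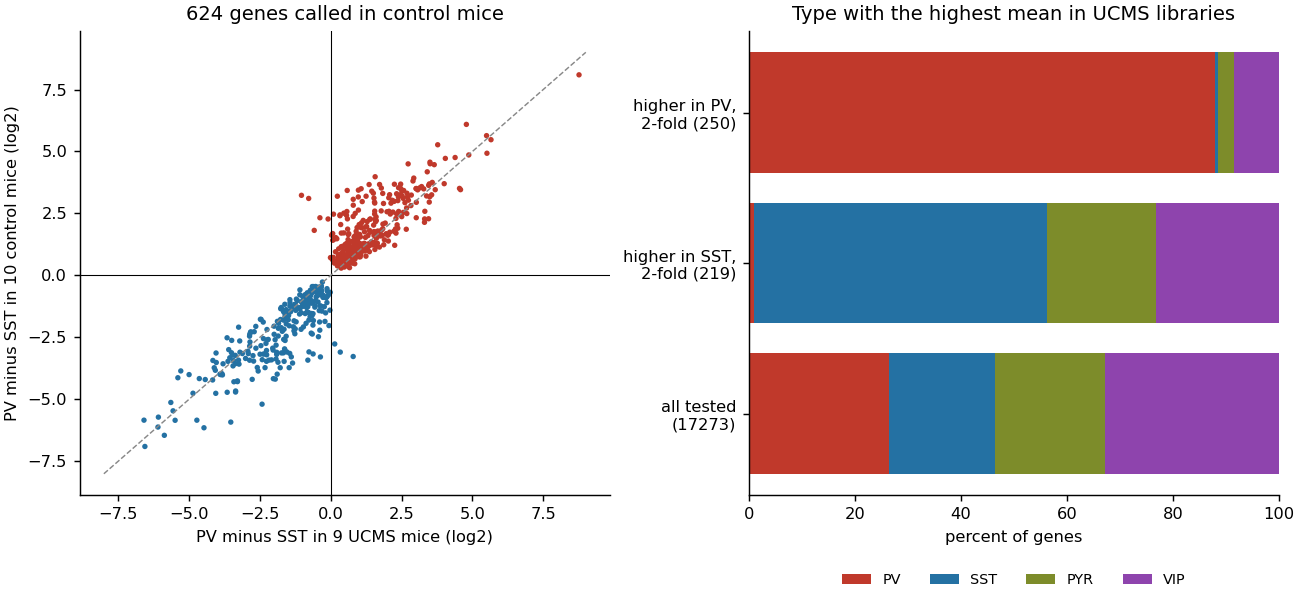
Left, each point is 1 of the 624 genes called in control mice, with its PV minus SST difference in UCMS mice on the horizontal and in control mice on the vertical axis (log2); 615 points lie in the quadrants of equal sign. Right, bars give the percent of genes whose mean over UCMS libraries was highest in PV, SST, PYR or VIP: 88% of the 250 genes higher in PV peaked in PV, and 55.3% of the 219 genes higher in SST peaked in SST.

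Placed among all 4 neuron types, genes of the PV side were mostly highest in PV neurons, while genes of the SST side were often shared with other types. This was read in UCMS libraries, which the choice of genes did not use. The genes were chosen for an order of PV and SST that mostly recurred there, which by itself raises or lowers these shares. The shares over all genes, which were not chosen so, are therefore no equal baseline. Of the 250 genes higher in PV by 2-fold in control mice, 220 had their highest mean in PV libraries (88%, against 26.4% of all genes tested), 21 in VIP, 8 in PYR and 1 in SST libraries. Of the 219 genes higher in SST, 121 had their highest mean in SST libraries (55.3%, against 20% of all genes), 51 in VIP, 45 in PYR and 2 in PV libraries. PV libraries had the lowest mean of the 4 types for 152 of those 219 (69.4%, against 34.0% of all genes), and SST libraries the lowest for 83 of the 250 (33.2%, against 20.5%). Control means show single cases. Erbb4 averaged 9404 ± 1714 in PV and 1873 ± 937 in SST libraries, 268 in PYR and 5152 in VIP libraries. Gpm6a averaged 2089 ± 843 in PV and 4641 ± 826 in SST libraries, 4853 in PYR and 3084 in VIP libraries. Scn2a averaged 2341 ± 737 in PV and 5010 ± 616 in SST libraries, 6411 in PYR and 5806 in VIP libraries (SD, n = 10 each).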

How the data were processed

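RNA was sequenced from pools of laser-captured neurons with a stranded total RNA kit for small inputs, per the labels' protocols. The submitters' processing notes name HISAT2, SAMtools 1.3, DESeq2 and the mouse build GRCm38/mm10. The deposited table holds a normalized signal, read counts per gene divided by a size factor for the library, with no further scaling for gene length. Within each library all values were whole multiples of the value of 1 read, within 0.01 reads (100% of values), so whole read counts were recovered from the deposited values for the count tests. One SST library had a multiple near 1. Of 38879 genes, 38636 matched GENCODE M21, 183 had no symbol and 26 had symbols turned into dates.

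Values were analysed as log2(normalized count + 4) for the 17273 genes with a mean of at least 10 over the 20 control libraries, in R 4.3.3 with limma 3.58.1 (trend and robust empirical Bayes) and the mouse as a block. Robust fitting gives very variable genes, such as Reln, Sst and Calb1, more of their own spread. For most other genes the fit takes the spread largely from genes of like level. Fos, Nr2f2, Crh and Acan, for example, had SEs of 1.00, 1.00, 0.999 and 0.994. The SEs and p-values of most genes, including the very small ones, are thus no measure of that gene's own spread between mice. P-values were adjusted by Benjamini-Hochberg over all genes tested, with 0.05 as the threshold. The same fit was made in 9 UCMS mice, and the difference between arms over 19 mice (38 libraries). Library measures used exact paired sign-flip tests over 1024 flips. edgeR 4.0.16 (quasi-likelihood) and DESeq2 1.42.0 on the recovered counts, other pseudocounts, filters and scalings, and leaving out mice were alternatives. Both libraries of a number come from 1 mouse. The correlation of their deviations was -0.0136 to 0.0935 (median 0.00505, against -0.000311 between mice), over 0.1 in 0 of 10 pairs, and the block was kept because the animal is shared.

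Named genes were, per direction, the 12 protein-coding genes with the highest moderated t among those 2-fold apart, up to 5 called members of each gene list and up to 3 members of each list that were not called, taken by mean level, with all PV and SST markers. The genes, lists and tests were chosen with earlier results of these data known. Promoter windows are those of RefSeq on GRCm38.p6. No 2 libraries held identical values. Some genes that meet the rule are not reported here.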

Additional observations from a re-analysis of the deposited data

Results flagged for a closer look

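Dixon's test at its 95% limit was applied to 230 groups of 10 libraries (103 genes and the library measures in both types). In 36 of these groups (15.7%) a library stood far from the others. For normally distributed values chance flags about 1 in 20 groups. The values tested were not on a log scale, and some flagged genes were skewed and near the floor, such as Pdyn in PV libraries (70.2, next 1.19). The 15.7% therefore cannot be read against 1 in 20, and no excess of distant libraries is inferred from it. Values are normalized counts, each followed by the nearest other library of the type.

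PV library U1 stood apart for Pcdh18 at 48.9 (next 22.3). In PV library U2 the distant values were Scn4b at 1547 (next 581), Sstr1 at 423 (next 75.7), Chrm3 at 644 (next 310) and Chrna2 at 47.4 (next 0). For PV library U3 they were Adcy2 at 3.99 (next 333), Gabrd at 1904 (next 861), Gabbr2 at 8557 (next 6172), Gria4 at 5392 (next 3286), Acan at 939 (next 273), Ppargc1a at 3574 (next 2553), Atp2a2 at 9026 (next 5860) and Osbpl3 at 3029 (next 1518). Distant in PV library U5 were Synpr at 628 (next 147) and Crhbp at 691 (next 327). The distant genes of PV library U6 were Oxtr at 412 (next 111). PV U8 was distant for Pdyn at 70.2 (next 1.19), Penk at 55.7 (next 25.9) and Fos at 86.5 (next 13.4). Of PV library U9, the test marked Ntrk3 at 5039 (next 6507) and Kcnip2 at 4586 (next 2277).

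SST library U1 stood apart for Pdyn at 1879 (next 934). In SST library U3 the distant values were Ank1 at 2226 (next 1587). For SST library U4 they were Grik3 at 8478 (next 5131) and Acan at 246 (next 38). Distant in SST library U6 were Scn1a at 4963 (next 3619), Bcan at 1289 (next 567), Atp5a1 at 4210 (next 3230) and Atp2b2 at 10065 (next 6802). The distant genes of SST library U9 were Gpr176 at 527 (next 213). Of SST library U10, the test marked Cplx1 at 1603 (next 3039), Btbd11 at 2058 (next 1103) and Ptprt at 8964 (next 6150).

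Among library measures, microRNA gene models took 16.9% of the reads of PV library U8 (next 23.0%), the pyramidal markers of PV library U9 summed to 9626 (next 12968), and the microglial markers of SST library U6 summed to 1446 (next 784). Leaving out mouse 3, whose PV library has the most of these values, kept 480 of the 624 calls.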

How the results depend on the processing

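Of 181 called genes among the 674 listed, 118 were called in all 22 alternatives, 48 lost the call without some single mouse and 0 changed direction. The 624 calls became 367 (199 higher in PV, 168 higher in SST, 300 at 2-fold) with no filter on low values, where 31311 genes shared the adjustment. DESeq2 called 1624 (823 higher in PV, 801 higher in SST, 1356 at 2-fold, 572 shared with the 624), and edgeR 457 (312 at 2-fold); the cause was not tested. Leaving out 1 mouse gave 502 to 588 calls, 277 to 328 higher in PV, 219 to 260 higher in SST and 384 to 455 at 2-fold. Without mice 3 and 10, which had the fewest genes detected and were chosen after seeing the data, 456 were called, 418 of them shared. With no replicate block, which ignores the pairing by mouse, 595 were called in control mice (593 shared) and 837 in UCMS mice against 761. For the difference between arms, limma called 0 and edgeR 7 genes.

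Depth limits the genes that are nearly absent in a type: there a difference rests on few reads and on the added 4.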
